A study of Homo sapiens with 12 samples.

Results

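NRF2 and its antioxidant targets were measured with 12 arrays of the type HG-U133 Plus 2.0 (Affymetrix) in Hs578T and BT-20, established lines of human breast cancer. The 9 genes were NFE2L2, which encodes NRF2, its inhibitor KEAP1, and the target genes NQO1, HMOX1, TXNRD1, SRXN1, ME1, AKR1B10 and AKR1C3, out of 19775 genes with a probe set annotated to them alone. Each gene was read from the probe set with the highest mean over the 12 arrays. In both lines the cells had received 200 nM of a DNA oligonucleotide with 3 µg of the liposomal reagent DOTAP per µg of DNA for 24 h. M was a double-stranded oligonucleotide of the CDH13 gene with methylated CpG cytosines, U was the same sequence without methylation, ODN2006 was a single-stranded CpG oligodeoxynucleotide, and the control of ODN2006 (ODN2006 CTL in the labels, hereafter the control) carried GpC in place of CpG. M and U had 2 arrays each per line, named set 1 and set 2 and labelled biological replicates, whereas ODN2006 and the control had 1 array each per line. Arrays of untreated cells or of cells with DOTAP alone were not analysed here, so every value comes from transfected cells. Each line is a single established line, and the labels do not say whether the sets were separate cultures, so p-values measure the spread between these arrays.

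NRF2 is a transcription factor that pairs with small MAF proteins and binds antioxidant response elements in the regulatory DNA of its target genes. In unstressed cells KEAP1 holds NRF2 to a CUL3 ubiquitin ligase, which marks it for degradation. Oxidants and electrophiles modify cysteines of KEAP1, NRF2 accumulates, and enzymes that supply reducing power, restore oxidised thiols and detoxify quinones and aldehydes are transcribed. The activity of NRF2 is thus set largely at the protein, which arrays do not measure.

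The oligonucleotides are shown because they are what the treatments differ in. Capitals mark each CpG, and the bases are given as the treatment protocol lists them.
ODN2006: tCGtCGttttgtCGttttgtCGtt
ODN2006 control: tgctgcttttgtgcttttgtgctt
CDH13 U: tCGgatCGccCGgcaCGggcagggtgaggg
CDH13 U, complementary strand: ccctcaccctgccCGtgcCGggCGatcCGa
ODN2006 and its control were 24 bases long, with 4 and 0 CpG. CDH13 U was 30 bases long with 4 CpG in each strand, and in M the cytosines of these 8 CpG were methylated. ODN2006 is a ligand of the receptor TLR9, which senses CpG DNA in endosomes.

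The values are log2 values that the submitters computed with GCRMA, so a difference of 1 is a factor of 2. Array medians over all probe sets were 3.01 to 3.09, and arrays correlated at 0.985 to 0.998 within a line and at 0.887 to 0.906 between lines. The lines differed in their cell type markers. The median of 7 epithelial markers was 2.69 to 3.07 in the Hs578T arrays and 13.2 to 13.5 in the BT-20 arrays. The median of 7 mesenchymal markers was 14.5 to 14.6 in Hs578T and 2.80 to 2.94 in BT-20. Of the epithelial markers, 2 had a mean of at least 5 in Hs578T, and 3 of the mesenchymal markers did in BT-20. Of 2 leukocyte markers, 0 reached a mean of 5 in either line, and of 3 endothelial markers 1 did in each.

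The first question was how the genes differed between Hs578T and BT-20. NFE2L2 and the target genes NQO1, TXNRD1, ME1 and AKR1B10 were lower in Hs578T, by 1.76-fold to 60.0-fold, and KEAP1 was 1.46-fold higher. The target genes HMOX1, SRXN1 and AKR1C3 did not pass the test. In limma over the 8 M and U arrays, 6 of 9 genes had an adjusted p under 0.05, and 74.6% of all 10410 genes tested did, so the count of called genes was no larger a share than the background. Of the 9 genes 5 were lower and 1 was higher in Hs578T, against 40.2% and 34.4% of all genes. The median log2 difference (Hs578T minus BT-20) was -0.82 over the 9 genes and -0.09 over all genes tested. In RNA from bulk cultures, fewer cells of a type and less RNA per cell cannot be told apart.

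**Figure D1:**
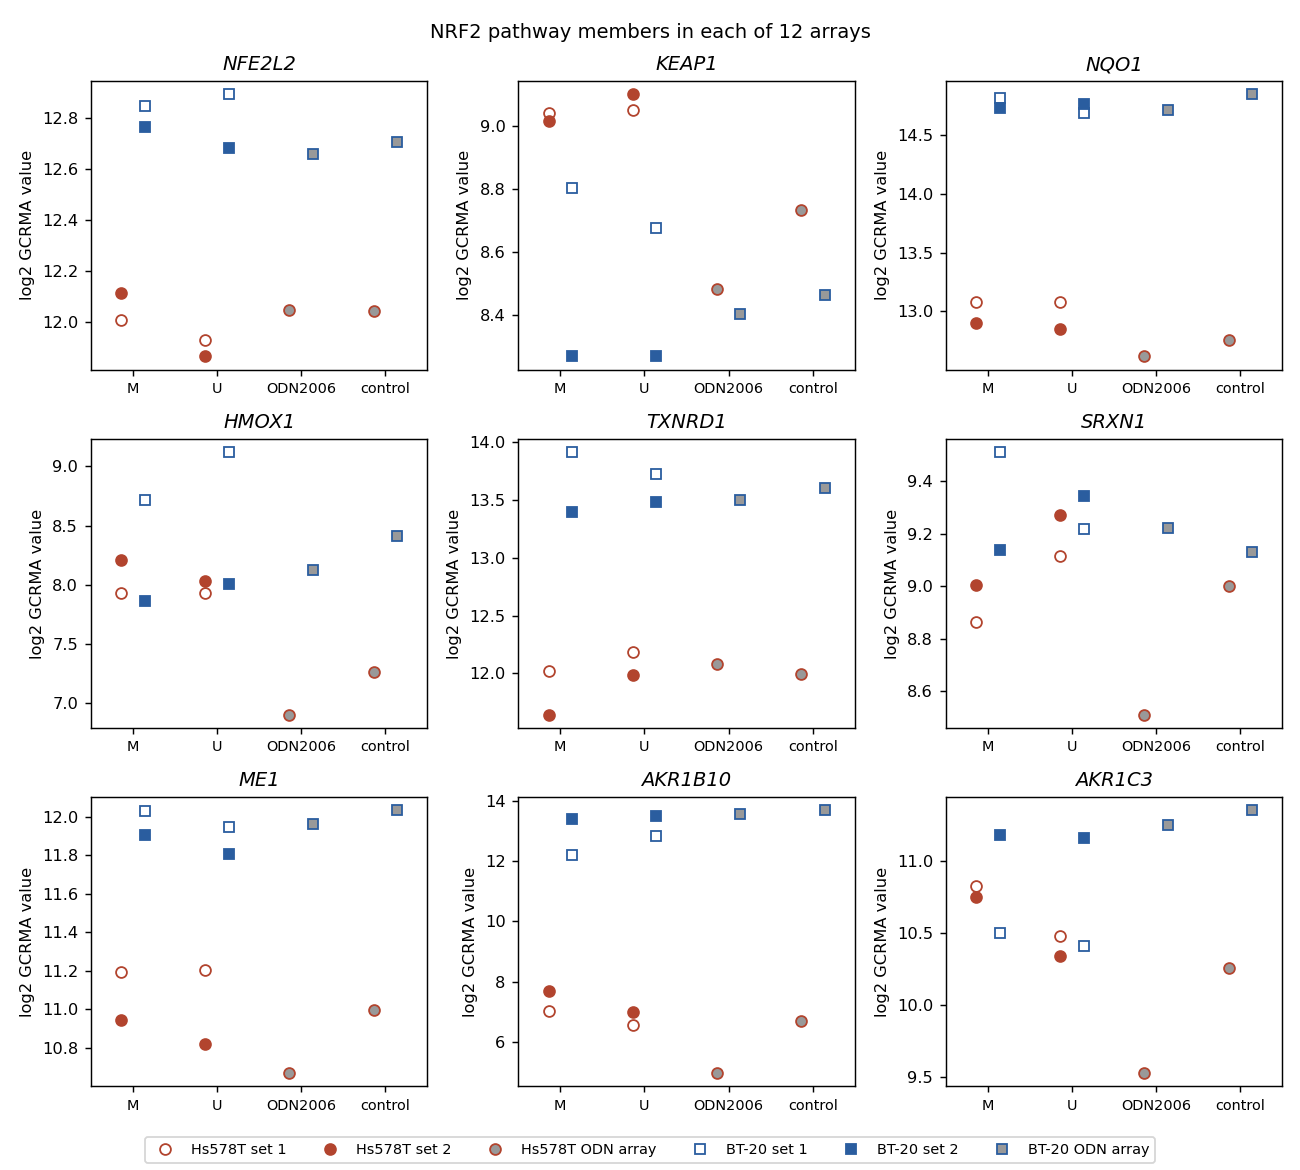
Log2 GCRMA value (vertical axis, its own range for each gene) of the 9 genes in each of 12 arrays, with the oligonucleotides along the horizontal axis. Hs578T is drawn as circles and BT-20 as squares (open in set 1, filled in set 2, grey in ODN arrays), and for NFE2L2, NQO1, TXNRD1, ME1 and AKR1B10 every circle lies under every square.

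Among the regulators, NFE2L2 (chr2:177230303-177264727 in GRCh38.p14) had a lowest, median and highest value of 11.86, 12.03 and 12.11 in the 6 Hs578T arrays. In the 6 BT-20 arrays they were 12.66, 12.73 and 12.89. The lines did not overlap, and the log2 difference was -0.82 (SE 0.09, adjusted p = 0.000219 by limma). KEAP1 (chr19:10486125-10503356), the adaptor that delivers NRF2 to the ligase, was at 8.48, 9.03 and 9.10 in Hs578T. In BT-20 it was at 8.27, 8.43 and 8.80. The lines overlapped, since the ODN2006 and control arrays of Hs578T lay at 8.48 and 8.74, below the BT-20 M array of set 1 at 8.80. Over the M and U arrays the difference of KEAP1 was 0.55 (SE 0.15, adjusted p = 0.0150), and the 4 M and U arrays of Hs578T at 9.02 to 9.10 were all above the 4 of BT-20. That call was lost within set 1 alone (0.31, adjusted p = 0.0970), in the 4 ODN arrays alone (0.18, adjusted p = 0.274) and where arrays were centred on housekeeping genes (0.10, adjusted p = 0.485).

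AKR1B10 (chr7:134527567-134541412), an aldo-keto reductase that reduces aldehydes and retinal, differed most among the 9 genes. Its Hs578T values were 7.04 and 7.70 for M (set 1, then set 2), 6.56 and 6.98 for U, 4.98 for ODN2006 and 6.68 for the control. Its BT-20 values were 12.20 and 13.38 for M, 12.84 and 13.48 for U, 13.57 for ODN2006 and 13.67 for the control. Every Hs578T array lay under every BT-20 array. The log2 difference was -5.91 (SE 0.31, 95% interval -6.65 to -5.16, adjusted p = 4.99e-06), or 60.0-fold, which ranked 375 by size among the 10410 genes tested. AKR1B10 has close relatives in its family, and its probe set carries the suffix of sets that can hybridise to more than 1 transcript. What its relatives add to its signal was not tested. The probe sets read for NQO1 and ME1 carry the same suffix, as do those of several other pathway genes below.

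NQO1 (chr16:69709401-69726560), a quinone reductase that uses NAD(P)H, was at 12.62, 12.88 and 13.08 in Hs578T as lowest, median and highest. In BT-20 it was at 14.69, 14.75 and 14.85, with no overlap. The log2 difference was -1.77 (SE 0.10, 95% interval -2.01 to -1.53, adjusted p = 6.71e-06), or 3.42-fold. NQO1 had 3 probe sets to itself, and the second of them gave -2.34. TXNRD1 (chr12:104215779-104350307), which keeps cytosolic thioredoxin reduced, was at 11.64, 12.01 and 12.19 in Hs578T and at 13.40, 13.55 and 13.91 in BT-20. These ranges did not overlap either, and the log2 difference was -1.67 (SE 0.16, adjusted p = 8.75e-05), or 3.19-fold. The other probe set of TXNRD1 lay between 2.36 and 2.43 on all 12 arrays and was not tested. ME1 (chr6:83210402-83431051), the cytosolic malic enzyme that makes NADPH, was at 10.67, 10.97 and 11.20 in Hs578T and at 11.81, 11.95 and 12.03 in BT-20. It did not overlap between the lines, and its log2 difference was -0.88 (SE 0.12, adjusted p = 0.000610), or 1.84-fold. The second probe sets of ME1 and NFE2L2 gave -0.64 and -1.01 and passed the test too.

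The remaining 3 target genes overlapped between the lines. HMOX1 (chr22:35381096-35394207), the inducible heme oxygenase, read 7.93 and 8.20 in the M arrays of Hs578T, 7.93 and 8.03 in the U arrays, 6.90 after ODN2006 and 7.26 after the control. Its BT-20 values were 8.72 and 7.86 for M, 9.12 and 8.01 for U, 8.12 for ODN2006 and 8.41 for the control. The 2 BT-20 arrays of set 1 were the highest and the 2 ODN arrays of Hs578T the lowest. The log2 difference of HMOX1 over the M and U arrays was -0.40 (SE 0.29, 95% interval -1.10 to 0.29, adjusted p = 0.240). It was -0.99 within set 1 (adjusted p = 0.00401) and 0.18 within set 2 (adjusted p = 0.324), and in the 4 ODN arrays alone it was -1.19 (adjusted p = 0.00138). SRXN1 (chr20:646615-653200), which reactivates over-oxidised peroxiredoxins, was at 8.51, 9.0 and 9.27 in Hs578T and at 9.13, 9.22 and 9.51 in BT-20. Its log2 difference was -0.24 (SE 0.12, 95% interval -0.52 to 0.04, adjusted p = 0.107).

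AKR1C3 (chr10:5048781-5107686), an aldo-keto reductase that acts on steroids and prostaglandins, read 10.83 and 10.75 in the M arrays of Hs578T, 10.48 and 10.34 in the U arrays, 9.53 after ODN2006 and 10.26 after the control. Its BT-20 values were 10.50 and 11.18 for M, 10.41 and 11.16 for U, 11.25 for ODN2006 and 11.35 for the control. The 2 BT-20 arrays of set 1 lay inside the Hs578T range and the other 4 above it. The log2 difference was -0.21 (SE 0.22, 95% interval -0.73 to 0.30, adjusted p = 0.391), and it was 0.20 within set 1 (adjusted p = 0.267) and -0.63 within set 2 (adjusted p = 0.0184). In the 4 ODN arrays alone it was -1.41 (adjusted p = 0.00344). AKR1C3 has relatives in AKR1C1 and AKR1C2, and cross-hybridisation between them was not tested.

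**Figure D2:**
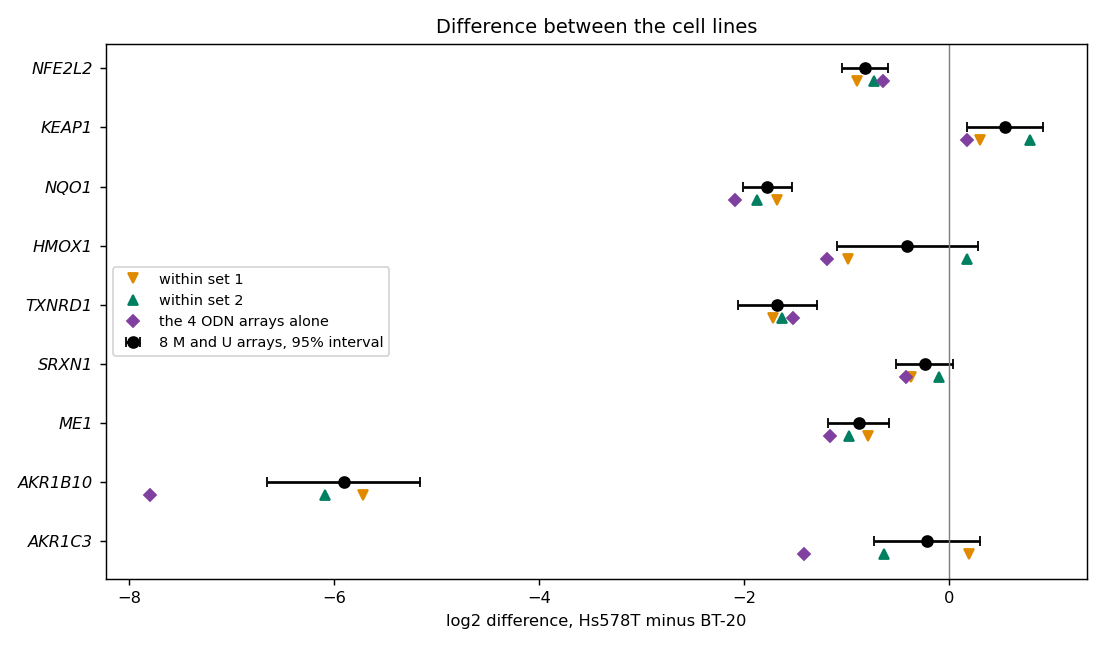
Log2 difference between the lines, Hs578T minus BT-20 (horizontal axis), for each of the 9 genes. Black points are the 8 M and U arrays with 95% intervals from limma, and coloured points are set 1, set 2 and the 4 ODN arrays taken alone. The points of NFE2L2, NQO1, TXNRD1, ME1 and AKR1B10 all lie below 0, whereas those of HMOX1 and AKR1C3 fall on both sides.

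Over all 12 arrays, 5 of the 9 genes had every Hs578T array under every BT-20 array and 0 had every Hs578T array above. Of 10543 genes, 35.9% were separated in the first way and 29.1% in the second. The 5 separated genes passed the test also within set 1, within set 2 and in the 4 ODN arrays alone. Of all genes tested, 70.2%, 69.8% and 72.7% passed there. The arrays of these fits are among the 12 that define the separation, so passing is not independent support. These fits held 4 arrays each, which leaves little to estimate the spread, and M and U of one set were not independent. For AKR1B10 the log2 difference was -5.72 in set 1, -6.09 in set 2 and -7.80 in the ODN arrays. For NFE2L2 it was -0.90, -0.73 and -0.64. Centring the arrays on 11 housekeeping genes moved the median over all genes by -0.46. This shift is common to all genes and is part of each difference under this centring. With it 8 of the 9 genes were called, all lower in Hs578T, as were 80% of all genes tested in either direction. HMOX1 was then at -0.85, SRXN1 at -0.69 and AKR1C3 at -0.66, and KEAP1 was not called. Under that scaling 2377 genes were higher and 5951 lower in Hs578T, against 3580 and 4189 without it.

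Antioxidant response elements were looked for in the 250 bases before the RefSeq start site of the genes (GRCh38.p14), as TGACNNNGC on both strands. Of the 9 genes 7 had such a sequence in the table used. TXNRD1 and ME1, which were both lower in Hs578T, held a match, and their sequences are shown with the match in capitals, 5′ to 3′ on the strand of the gene.
TXNRD1, chr12:104215529-104215778 (+): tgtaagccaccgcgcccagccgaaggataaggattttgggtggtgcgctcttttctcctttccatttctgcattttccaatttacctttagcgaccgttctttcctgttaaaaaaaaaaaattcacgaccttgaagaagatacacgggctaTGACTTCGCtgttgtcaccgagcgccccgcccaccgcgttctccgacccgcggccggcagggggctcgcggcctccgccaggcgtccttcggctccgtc
ME1, chr6:83431052-83431301 (-): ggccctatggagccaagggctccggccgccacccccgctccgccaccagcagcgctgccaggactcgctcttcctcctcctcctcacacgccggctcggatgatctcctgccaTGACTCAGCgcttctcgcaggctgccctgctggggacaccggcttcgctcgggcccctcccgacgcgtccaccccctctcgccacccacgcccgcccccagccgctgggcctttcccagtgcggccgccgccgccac
The first base of the match lay at -99 from the start site in TXNRD1 and at -137 in ME1. The match of ME1 also holds TGACTCA, the core bound by AP-1 factors. Among 27305 genes with a sequence of this length, 3013 (11.0%) held a match, as did 2 of the 7 genes and 11 of the 40 other listed genes of the pathway. A match describes the letters of this window and is not evidence that NRF2 binds there.

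Other genes of the NRF2 pathway were read from 7 lists of 54 genes, of which 50 had a probe set to themselves and 46 were tested. Of these 46 genes, 13 were higher and 23 lower in Hs578T and 10 did not pass the test, against 34.4% higher and 40.2% lower over all genes. Centred on housekeeping genes, 8 were higher and 28 lower, against 2377 higher and 5951 lower of all 10407 genes tested.

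Of 9 regulators 3 were higher and 2 lower. MAFF, a small MAF partner of NRF2, was higher in Hs578T (log2 difference 1.53), as were NFE2L1, a related factor (0.59), and RBX1, the RING subunit of the CUL3 ligase (0.72). MAFG, another small MAF partner, was lower (-0.76). The calls of NFE2L1 and RBX1 were lost with housekeeping centring.

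Of 9 glutathione genes 4 were higher and 4 lower. The glutathione transferases GSTP1, GSTM3 and GSTA4 had log2 differences of 6.92, 7.21 and 5.95, with BT-20 means of 4.16, 2.39 and 2.80, near the low end of the arrays. With values under 5 raised to 5 they were at least 67.7-fold, 24.3-fold and 13.4-fold higher in Hs578T. Glutathione synthetase (GSS) was lower (-2.0). The subunits of glutamate-cysteine ligase, which makes the first step of glutathione synthesis, were lower as well, GCLC at -1.44 and GCLM at -0.91. Glutathione reductase (GSR) was higher (0.73), a call lost with housekeeping centring. GCLC, GCLM and GSR were chosen after their values were seen.

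The thioredoxin and NADPH lists are short, and 40.2% of all genes tested were lower in Hs578T. Of 3 thioredoxin and peroxiredoxin genes 0 were higher and 2 lower, with thioredoxin (TXN) at -0.98, PRDX6 at -0.56 and PRDX1, which did not pass, at -0.08. Of 4 genes of NADPH supply 0 were higher and 3 lower, with TALDO1 and PGD of the pentose phosphate pathway at -1.89 and -0.42, IDH1 at -1.31 and TKT, which did not pass, at 0.07. Of 4 iron and heme genes 2 were higher and 1 lower. The biliverdin reductases, which act on the product of heme oxygenase, went opposite ways, with BLVRA at 1.89 and BLVRB at -1.42. Ferrochelatase (FECH) was at 0.38, a call lost with housekeeping centring, and ferritin light chain (FTL), which did not pass, was at 0.13.

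Of 11 genes of carbonyl and xenobiotic detoxification 2 were higher and 7 lower in Hs578T. The higher genes were UGDH (2.76) and CBR1 (0.37), and the call of CBR1 was lost with housekeeping centring. HTATIP2, PTGR1, a reductase of prostaglandins and enals, and EPHX1, the microsomal epoxide hydrolase, were at -3.06, -2.14 and -1.82. CYP4F11, a cytochrome P450, had a mean of 2.41 in Hs578T and 6.97 in BT-20, at least 3.93-fold lower with values under 5 raised to 5. The relatives of AKR1C3 did not pass, with AKR1C1 at 0.58 (adjusted p = 0.0613) and AKR1C2 at 0.25, and were chosen after their values were seen. All 6 efflux pumps tested passed, 2 higher and 4 lower. ABCC4 and ABCC1 were higher (4.87 and 1.15) and ABCC2 and ABCC3 lower (-4.81 and -2.0) in Hs578T. With values under 5 raised to 5, ABCC4 was at least 7.86-fold higher, and ABCC2 and ABCC3 at least 7.53-fold and 2.94-fold lower.

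**Figure D3:**
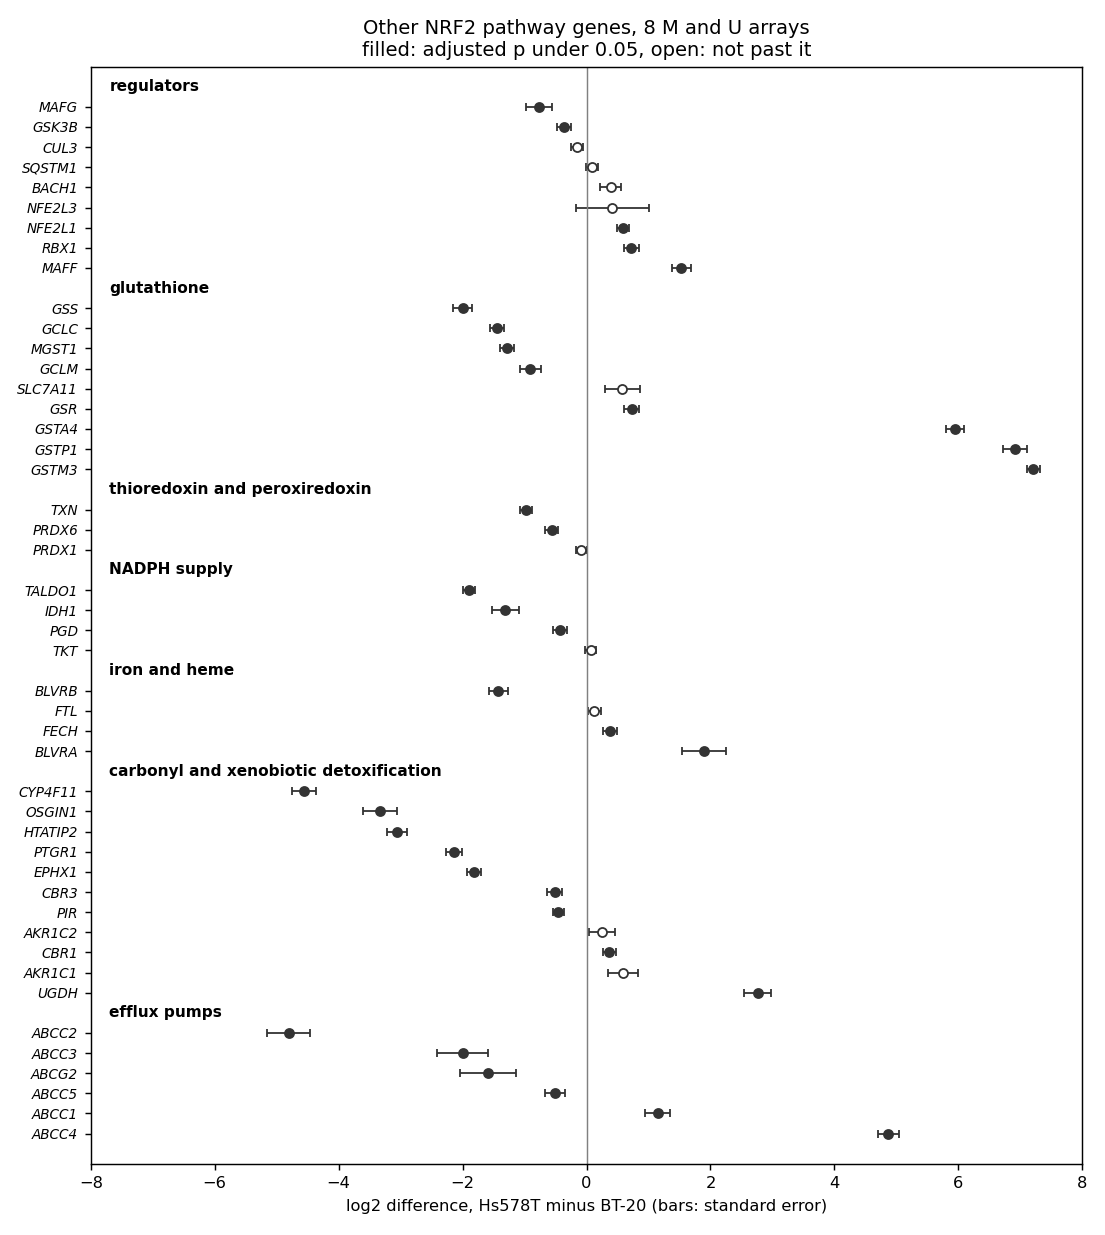
Log2 difference between the lines, Hs578T minus BT-20 (horizontal axis), for 46 other pathway genes in 7 lists, over the 8 M and U arrays. Bars are standard errors from limma, filled points have an adjusted p under 0.05 and open points do not, and the thioredoxin and NADPH lists have no filled point above 0.

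The second question, which the design names, was whether the methylated and unmethylated oligonucleotide differed. For the 9 genes no difference was detectable. In limma 0 of 9 genes passed in either line, over the lines together or in the difference between the lines, and 0.0% of 10410 genes did in each of these comparisons. At an unadjusted p under 0.05 there were again 0 of the 9 genes in each, against 6.53%, 1.67%, 5.22% and 2.48% of all genes. With the set as a block within the line, which takes out what M and U of one set share, 0 of 9 genes passed again in each. At an unadjusted p under 0.05 there were then 2 of 9 in Hs578T (AKR1B10, adjusted p = 0.287, and AKR1C3, adjusted p = 0.287), against 1464 of 10410 genes, and 0 in BT-20, against 508. Over the lines together there was 1 (AKR1C3, adjusted p = 0.394), against 1266, and in the difference between the lines 1 (AKR1B10, adjusted p = 0.634), against 741. The log2 differences (M minus U) were -0.26 to 0.60 in Hs578T and -0.37 to 0.09 in BT-20, and the median over the 9 genes was 0.06 and 0.05, against -0.01 and 0.00 over all genes.

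AKR1B10 had the largest of these differences in size in both lines. In Hs578T M was above U by 0.48 in set 1 and by 0.72 in set 2, with a mean of 0.60 (SE 0.44, 95% interval -0.46 to 1.65). In BT-20 M minus U was -0.64 in set 1 and -0.10 in set 2, with a mean of -0.37 (SE 0.44, 95% interval -1.43 to 0.68). The difference between the lines was 0.97 (SE 0.62, 95% interval -0.52 to 2.46, adjusted p = 0.999), and it did not pass the test without the block or with it (SE 0.24). AKR1C3 was above U in both sets of Hs578T, by 0.35 and 0.41, and in both sets of BT-20, by 0.09 and 0.02. SRXN1 in Hs578T had M minus U at -0.25 and -0.27. In Hs578T 3 genes had M above U in both sets, 3 below in both and 3 were mixed, and in BT-20 these counts were 3, 2 and 4.

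NFE2L2 itself had the narrowest intervals, with M minus U at 0.16 in Hs578T (95% interval -0.16 to 0.48) and at 0.02 in BT-20 (95% interval -0.30 to 0.34). HMOX1, which heme and oxidants induce, was at 0.08 in Hs578T (95% interval -0.89 to 1.06) and at -0.27 in BT-20 (95% interval -1.25 to 0.70). These intervals come from the fit without the block, so differences between set 1 and set 2 enter their spread. For HMOX1 set 2 minus set 1 was -0.98 (BT-20) and 0.19 (Hs578T). With 2 arrays a group and no block, a change of HMOX1 by less than about its interval was not detectable. The BT-20 pairs of HMOX1 gave M minus U of -0.40 (set 1) and -0.14 (set 2). For the Hs578T pairs it was -0.01 (set 1) and 0.18 (set 2). Of the 46 other pathway genes, 0 passed in any of these 4 comparisons.

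**Figure D4:**
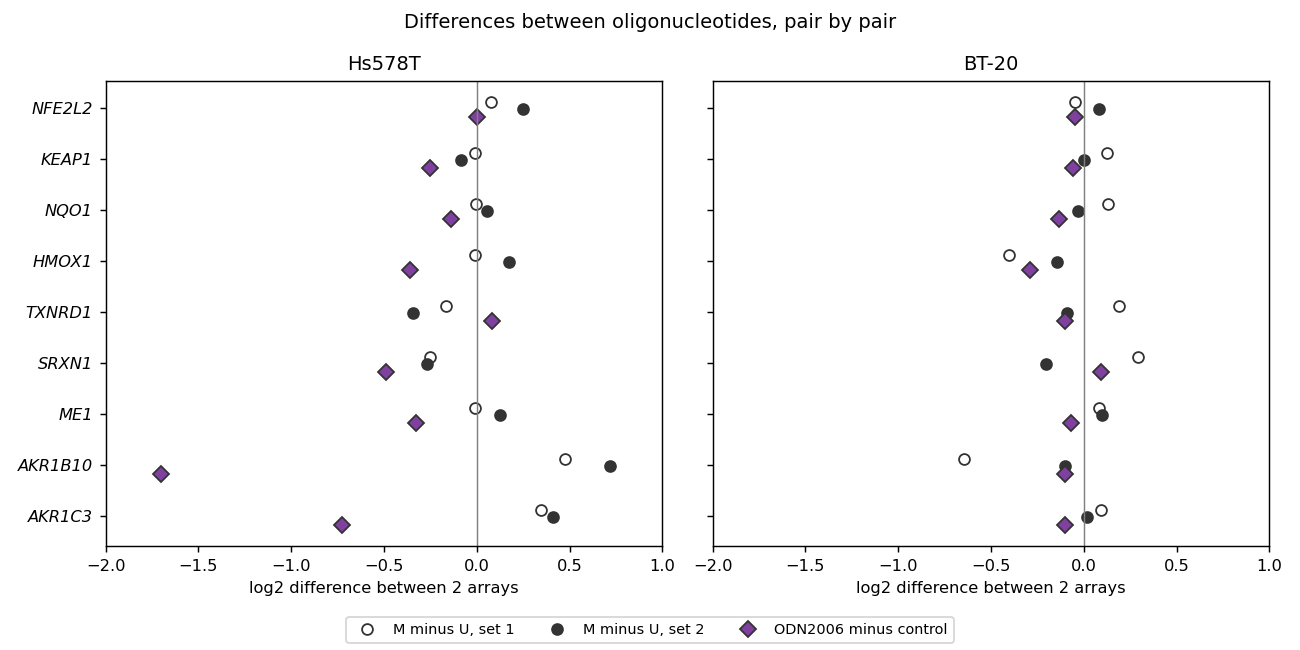
Log2 difference between 2 arrays of one line (horizontal axis) for each of the 9 genes, Hs578T at left and BT-20 at right. Circles are M minus U in set 1 (open) and set 2 (filled), and diamonds are ODN2006 minus its control, which reach -1.70 for AKR1B10 in Hs578T.

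ODN2006 and its control differ in the order of C and G at 4 places. Over both lines 0 of 9 genes passed in limma, and 0.00948% of 10543 genes did. At an unadjusted p under 0.05 there were 0 of the 9 genes, against 4.65% of all genes, and with the set as a block 3 of 9, against 1154 of 10543 genes. All 9 log2 differences (ODN2006 minus the control) were below 0, from -0.90 for AKR1B10 (SE 0.44, 95% interval -1.96 to 0.16, adjusted p = 0.999) to -0.01 for TXNRD1, and their median was -0.20, against -0.06 over all genes tested. Over all genes 35.1% were above 0. With housekeeping centring or quantile normalisation 2 of the 9 were above 0, as were 1 or 2 where an ODN array was left out. With 1 array per line and oligonucleotide, the spread was taken from the M and U arrays.

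The AKR1B10 value came from Hs578T, where ODN2006 minus the control was -1.70, against -0.10 in BT-20. AKR1C3 was at -0.73 and -0.10 and SRXN1 at -0.49 and 0.09 in the 2 lines. HMOX1 was at -0.36 and -0.29, ME1 at -0.33 and -0.07, KEAP1 at -0.25 and -0.06, and NQO1 at -0.14 in both. TXNRD1 was at 0.08 and -0.10, and NFE2L2 at 0.00 and -0.05. The difference between the lines, a test added after these values were seen, passed for 0 of 9 genes and for 0.0% of all genes (at an unadjusted p under 0.05, 0 of 9 and 2.93%). For AKR1B10 it was -1.60 (SE 0.88, 95% interval -3.71 to 0.52). Of the other pathway genes 0 passed in either comparison.

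The ODN arrays were also set against the M and U arrays of set 2, which carry array names of the same form in the labels. ODN2006 and its control were pooled as the 2 arrays of one group in each line, and M and U as those of the other. The kinds differ in sequence, length and strandedness and may differ in chemistry, and these cannot be told apart. No set number is given for the ODN arrays, so kind and culture cannot be told apart either. In Hs578T HMOX1 was lower with ODN2006 and the control, at 6.90 and 7.26, than with M and U of set 2, at 8.20 and 8.03. It was also below the M and U arrays of set 1, both at 7.93. The log2 difference was -1.04 (SE 0.17, 95% interval -1.44 to -0.64, adjusted p = 0.0222), or 2.05-fold. The spread in this comparison is that between M and U of set 2 and between ODN2006 and its control. It holds no variation between set 1 and set 2. Between those sets (set 2 minus set 1) HMOX1 differed by 0.19 in Hs578T and by -0.98 in BT-20. HMOX1 was the 1 gene of 9 called, against 9.03% of 10375 genes in either direction and 5.16% lower, so the count did not stand apart from the background. At an unadjusted p under 0.05 there were 4 of 9 genes, against 29.4% of all genes.

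The HMOX1 call was close to the threshold. It was lost over all 12 arrays (-0.94, adjusted p = 0.0574), without the Hs578T M array of set 2 (-0.95, adjusted p = 0.0766), without the Hs578T ODN2006 array (-0.86, adjusted p = 0.0854) and without the BT-20 M or U array of set 2 (adjusted p = 0.0585 in each). KEAP1 was at -0.45 (adjusted p = 0.0630), AKR1B10 at -1.51 (adjusted p = 0.109) and AKR1C3 at -0.65 (adjusted p = 0.140), and none of these passed. Without the Hs578T control array they did, with KEAP1 at -0.58 (adjusted p = 0.0462), AKR1B10 at -2.36 (adjusted p = 0.0177) and AKR1C3 at -1.01 (adjusted p = 0.0393). In that case the ODN group of Hs578T is the ODN2006 array alone, its spread is taken from the other groups, and the 3 calls rest on that array. It was the lowest of the 6 for KEAP1, NQO1, HMOX1, SRXN1, ME1, AKR1B10 and AKR1C3. NFE2L2 and TXNRD1 were at 0.06 and 0.22 and did not pass.

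In BT-20 0 of 9 genes passed in the same comparison, with log2 differences of -0.06 to 0.33, and 0.0% of all genes did (at an unadjusted p under 0.05, 0 of 9 and 5.15%). HMOX1 was at 0.33 (95% interval -0.07 to 0.73). The difference between the lines passed for 0 of 9 genes and for 0.27% of all genes. It was -1.37 for HMOX1 (SE 0.24, 95% interval -1.93 to -0.80, adjusted p = 0.0929) and -0.62 for KEAP1 (SE 0.17, adjusted p = 0.190). At an unadjusted p under 0.05 there were 2 of 9 genes and 16.0% of all genes. Of the 46 other pathway genes, 2 were higher and 4 lower in Hs578T, against 402 higher and 535 lower of all 10375 genes, and 0 passed in BT-20. All 6 calls were lost without the Hs578T M array of set 2, without the Hs578T ODN2006 array and without any 1 of the 4 BT-20 arrays. MAFF was at 1.42 and UGDH, which makes UDP-glucuronate, at 0.52, whereas GSTM3, PGD, CBR1 and CBR3 were at -0.58, -0.56, -0.51 and -0.59. UGDH, CBR1 and CBR3 were chosen after their values were seen.

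Within a line the genes varied by different amounts. The SD of the deviations from the line means over the 12 arrays was 0.76 for AKR1B10, 0.49 for HMOX1 and 0.44 for AKR1C3, and it was 0.09 for NFE2L2. In BT-20 the sets differed for these genes. HMOX1 was lower in set 2 than in set 1 by 0.98 (set 2 minus set 1, -0.98), whereas AKR1B10 and AKR1C3 were higher in set 2 by 0.91 and 0.72. In Hs578T the same differences were 0.19, 0.54 and -0.11.

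The deviations of KEAP1 and HMOX1 ran together, with r = 0.926 over the 12 arrays (0.960 in Hs578T and 0.887 in BT-20). AKR1B10 and AKR1C3 ran together as well, with r = 0.902 (0.921 and 0.902). HMOX1 and AKR1B10 did not keep one relation, with r = 0.872 in Hs578T and -0.654 in BT-20. These describe 6 arrays a line, which share sets and oligonucleotides, and 36 pairs of genes were compared. Of 10543 genes, those with deviations most like AKR1B10 were KIAA0232 (r = 0.964), MZF1 (0.949) and ARL6IP5 (0.948). Those most like HMOX1 were NRF1, which encodes nuclear respiratory factor 1 and not NRF2 (0.940), TSN (0.938) and JDP2 (0.938). Those most like AKR1C3 were HIGD2A (0.972), ATP5PD (0.971) and MSRB2 (0.963).

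**Figure D5:**
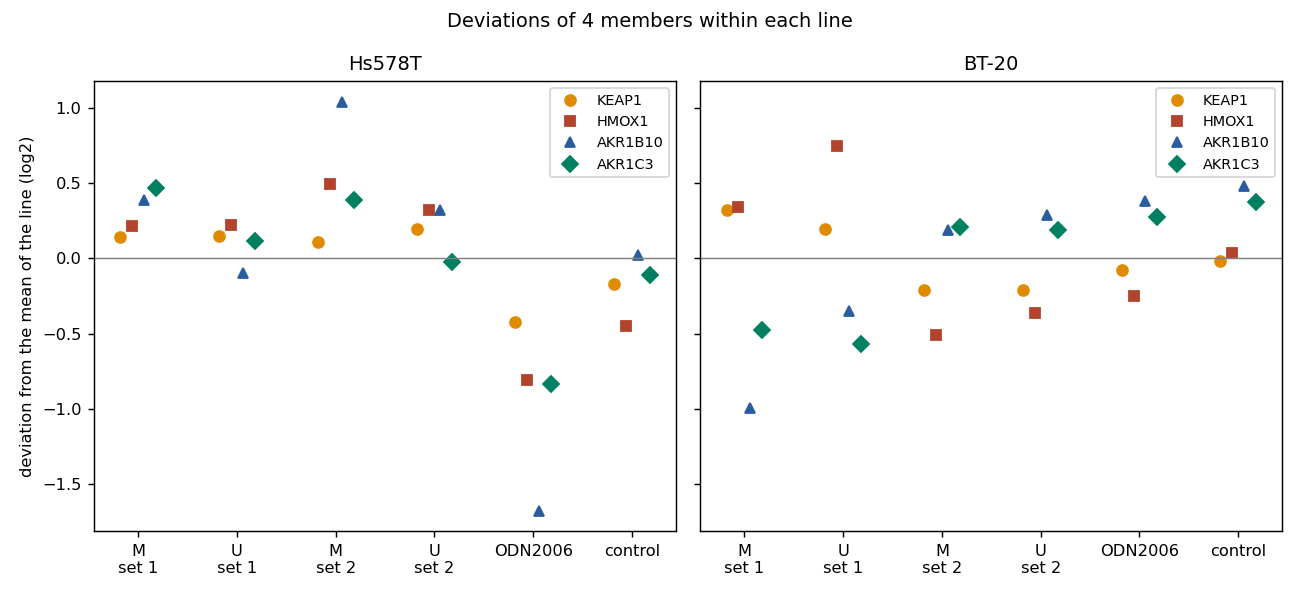
Deviation of the log2 value from the mean of the line (vertical axis) for KEAP1, HMOX1, AKR1B10 and AKR1C3 in each array (horizontal axis), Hs578T at left and BT-20 at right. In Hs578T all 4 genes are lowest in the ODN2006 array, and in BT-20 HMOX1 and KEAP1 lie above 0 in set 1 where AKR1B10 and AKR1C3 lie below it.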

How the data were processed

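RNA from Hs578T and BT-20 cells (12 samples) was hybridised to Affymetrix HG-U133 Plus 2.0 arrays. Per the labels' processing notes, the authors summarised the arrays with GCRMA in R 2.4, and the deposited values are log2 values, 1 for each of 54675 probe sets. Whether the 12 arrays were normalised together is not given in the sources used here, and a joint quantile step can shrink broad shifts between the lines. Precision is limited by how few arrays there are. The annotation table gave 1 gene to 41097 probe sets, several to 1801 and none to 11777. Of the probe sets with 1 gene, 41043 had a gene ID found in RefSeq (GRCh38.p14), and their symbols were taken from it.

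The values were used as deposited. Each gene was represented by its brightest probe set (highest mean over 12 arrays). Genes that reached 5 in 2 or more of the arrays compared were tested with limma 3.58.1 in R 4.3.3 (means of cell line by oligonucleotide, contrasts, eBayes, Benjamini-Hochberg over the genes tested, threshold 0.05). M against U and the line comparison used the 8 M and U arrays and ODN2006 against its control all 12, each with 4 residual degrees of freedom. The ODN arrays against M and U used the 4 ODN and 4 set 2 arrays with means of cell line by kind, where ODN2006 was pooled with its control, and M with U, as the 2 arrays of a group, which also leaves 4 residual degrees of freedom. A spread equal to that of the replicated groups was assumed for the unreplicated ODN groups. The 9 genes, the lists and the comparisons were chosen with earlier results of these data known. Of each list, up to 4 genes with the smallest p between the lines were named, and the 3 genes most like each of the 3 most variable members. The scripts were tested on simulated data.

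Deviations from the group means correlated between M and U of one set at 0.599 in Hs578T and 0.595 in BT-20, and at 0.0984 to 0.131 between lines, over 10410 genes. The set number was therefore also used as a block within the line for M against U and for ODN2006 against its control. In the line comparison the block was common to both lines, so M and U of one set still counted as separate arrays. Other alternatives were no filter, values under 5 raised to 5, centring on 11 housekeeping genes, quantile normalisation, trend and robust eBayes, the second probe set, other sets of arrays and leaving out each array in turn. The comparison within each set and the test of ODN2006 between lines were added after seeing the data. Within a set and in the ODN arrays alone, the model held terms for line and oligonucleotide. The oligonucleotides of a line then stand in for replicates, so these p-values rest on few degrees of freedom.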

Additional observations from a re-analysis of the deposited data

How the results depend on the processing

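Of 1430 values of single genes under the alternatives, 1409 kept their direction and side of the threshold or were uncalled in both, 13 became called, 8 lost the call and 0 called values changed sign. The count of the 9 genes called between the lines was 6, 6 to 7 when each array was left out (HMOX1 passed without the BT-20 U array of set 2 at an adjusted p of 0.0428, SRXN1 without the BT-20 M array of set 2 at 0.0380) and 8 with housekeeping centring. For the ODN arrays against M and U of set 2 in Hs578T it was 1, and 2 with values under 5 raised to 5 (KEAP1 was added at 0.0493), 0 over all 12 arrays and 0 to 4 when each array was left out. With the set as a replicate block within the line, the count was 0 for M against U in each line, as without it. Between the lines the block was a set effect common to both lines, and the count was 6. Of all genes tested, 80% were called between the lines with housekeeping centring, 78.1% with this block and 74.6% with neither. That block does not take out what M and U of one set share within a line, so pairing was not tested there.

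Over all genes, ODN2006 against its control called 1 gene, 150 with no filter, 3 with values raised to 5, 0 with trend and robust settings or in the 4 ODN arrays alone, and 0 to 2 with an array left out; its difference between lines called 0 and, with no filter, 134. The ODN arrays against M and U called 937 genes in Hs578T, 1444 with trend and robust settings, 1570 over all 12 arrays and 50 to 1510 with an array left out. In BT-20 they called 0, 4 with no filter, 7 over all 12 arrays and 0 to 4 with an array left out, and in the difference between lines 28, 67 with no filter, 50 with values raised to 5, 119 over all 12 arrays and 1 to 123 with an array left out. Of the other pathway genes in that Hs578T comparison, 2 were higher (0 to 2 with an array left out) and 4 lower (0 to 4 with an array left out, 2 with housekeeping centring, 9 with trend and robust settings or over all 12 arrays). The causes were not tested. The test of ODN2006 between lines could not be fitted without an ODN array.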
